A study of Mus musculus with 2 samples.

Results

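Membrane transporters for sugars, amino acids and monocarboxylates such as lactate were followed in single cells of the mouse uterus. The set holds every gene in the deposited feature table whose symbol is Slc, then 1 of the family numbers 1, 2, 3, 5, 6, 7, 16, 38 and 43, then a and digits. Slc2a12 was left out by the rule, and 6 symbols that carry a further letter after the digits, such as Slc6a20a and the antisense Slc7a6os, did not match. The rule gave 93 genes of 32285 features. Families 6, 7 and 16 were the largest with 19, 15 and 14 members.

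Cells of the uterus import glucose down its gradient through the SLC2 carriers, also called GLUTs, and against it through sodium-coupled SLC5 carriers. Amino acids enter through sodium-driven carriers of families 1, 6 and 38 and through exchangers of family 7, many of which must pair with a heavy chain of family 3 to reach the membrane. Monocarboxylates cross through proton-linked SLC16 carriers and the sodium-coupled Slc5a8. Before implantation the embryo lies free in the uterine cavity in fluid that the lining epithelium makes.

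The samples were 1 library labelled knockout (Pgrcre/+Mig-6f/f) and 1 control library (Mig-6f/f), both from uteri of female mice at gestational day 3.5, the animals' age and their number per library not being given here. Both carried floxed Mig-6, the gene listed as Errfi1, which encodes an inhibitor of the EGF receptor. The library labelled knockout also carried Cre inserted at the progesterone receptor gene Pgr, which aims the deletion at Pgr-expressing cells, and an effect of Cre at Pgr cannot be told apart from an effect of Mig-6 loss. With 1 library per genotype there was no replicate and no test, and every ratio compares these libraries only.

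After filtering, the library labelled knockout held 2881 barcodes and the control 4303. Levels are sums of unique molecular identifiers (UMIs) per class and library, divided by all UMIs of that class and library and put on the CPM scale. Brackets after a fold give its exact 95% interval, which covers counting error only. Barcodes were classed by marker UMIs per 10000 UMIs. At least 10 of Epcam, Krt8, Krt18 and Cldn7 made a barcode epithelial, which was glandular with at least 10 of Prss29, Prss28, Spink1 and Cxcl15 and luminal (lining the cavity) below that. At least 10 of Dcn, Col1a2 and Col3a1 made any other barcode stromal. Luminal barcodes were 1329 in the library labelled knockout and 647 in the control, with median depths of 9797 and 11927 UMIs. Glandular barcodes were 98 and 102 (5870.5 and 10679.5 UMIs), stromal barcodes 1050 and 3221 (3636 and 8879 UMIs), and the remaining barcodes 404 and 333 (2050.5 and 5794 UMIs), in the same order.

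Markers not used by the rule followed the class names, apart from Cxcl17 and a part of the luminal list. The 7 further epithelial markers summed to 8935 CPM in luminal barcodes labelled knockout and 6899 CPM in control, against 56.6 and 10.7 CPM in stromal barcodes of the same libraries. The 6 further stromal markers summed to 1394 and 1302 CPM in stromal barcodes. Luminal markers were lower in the luminal barcodes labelled knockout, with Calb1 at 16.3 CPM against 352 CPM in control and Lpar3 at 9.85 against 71.0 CPM. Of the 5 glandular markers not used by the rule, 4 were higher in glandular than in luminal barcodes of both libraries, among them Foxa2 at 38.2 and 69.5 CPM in glandular against 7.09 and 1.26 CPM in luminal barcodes. Cxcl17 went the other way, at 102 and 12.6 CPM in glandular and 341 and 269 CPM in luminal barcodes. The glandular markers of the rule summed to 9621 CPM in glandular barcodes labelled knockout and 21851 CPM in control. Errfi1, the targeted gene, was 509 and 539 CPM in luminal barcodes, 590 and 834 CPM in glandular barcodes (knockout label first), and higher under the knockout label in stromal barcodes, at 733 CPM against 197 CPM. It therefore went against the label in stroma, and these 3' counts check nothing where they lie outside the deletion. Which stretch is deleted was not given here.

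Of the 93 members, 60 had at least 20 UMIs over both libraries in at least 1 class. Another 30 had some UMIs but fewer, and 3 had none (Slc6a3, Slc6a11 and Slc7a13). The members under 20 UMIs include the liver and muscle glucose carriers Slc2a2 and Slc2a4, the kidney sodium-glucose carrier Slc5a2 and the astrocyte glutamate carrier Slc1a2. Among the 40 members measured in both luminal and stromal barcodes, 32 were higher in the same compartment in both libraries.

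**Figure D1:**
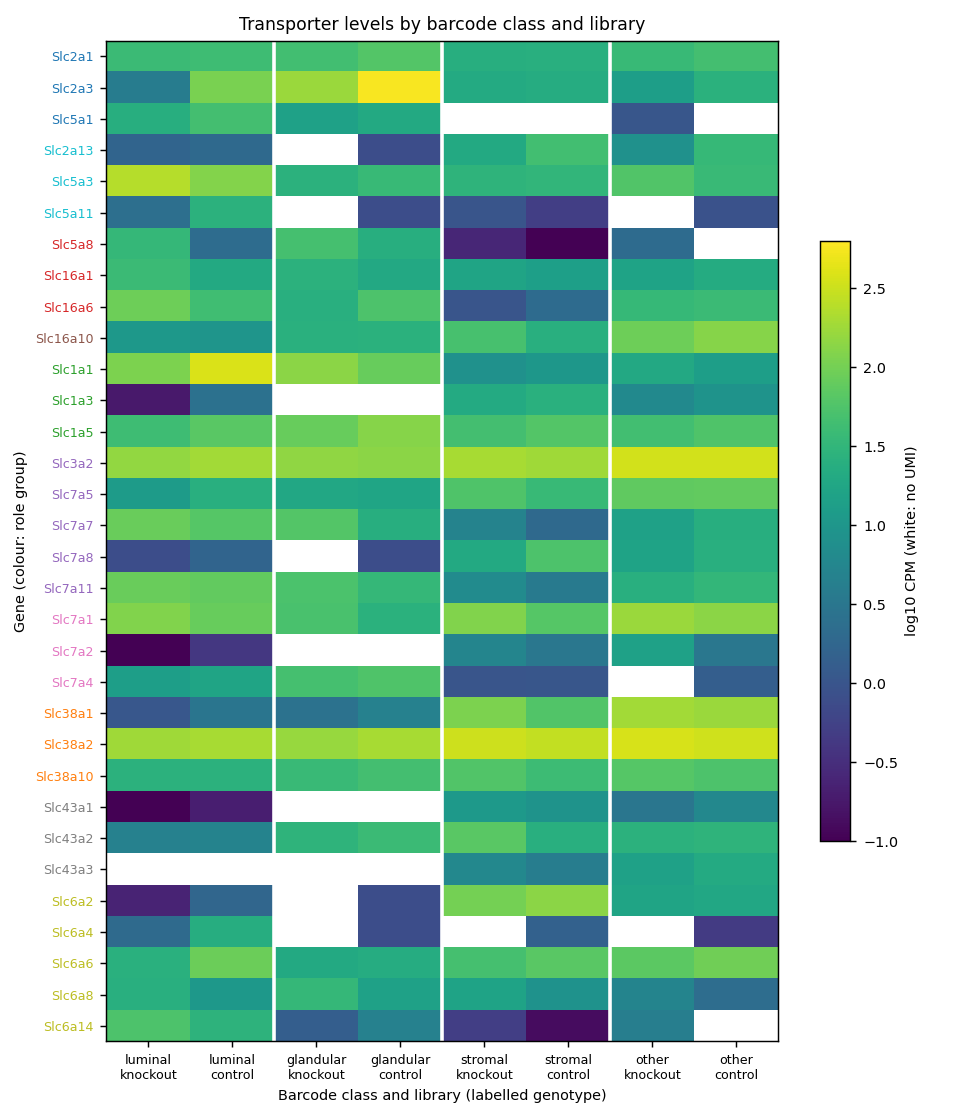
Levels (log10 CPM, colour) of 32 transporters in luminal, glandular, stromal and other barcodes of the library labelled knockout (left column of each pair) and the control library. White cells had no UMI. Slc2a3 reaches 578 CPM in control glandular barcodes and 3.96 CPM in luminal barcodes labelled knockout.

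In luminal barcodes the glucose carrier Slc2a3, the glutamate carrier Slc1a1, the taurine carrier Slc6a6, the serotonin carrier Slc6a4 and the inositol carrier Slc5a11 were lower in the library labelled knockout, while the monocarboxylate carriers Slc5a8 and Slc16a6 were higher. Of 48 measured members, 17 were lower by 2-fold or more (35.4%) and 5 were higher by as much (10.4%). Over all 13168 features with at least 20 UMIs, the same cutoffs held 15.4% lower and 5.37% higher. The median log2 ratio, knockout label over control, was -0.21 over the members and -0.16 over all features. Recentred on the luminal median of features with at least 100 UMIs, which was -0.12, the split was 14 lower and 9 higher. With barcodes thinned to 2000 UMIs, 29 members were measured, of which 7 were lower and 6 higher, and their median log2 ratio was 0.05. Among the 22 members past 2-fold, 9 reached 20 CPM in the higher library. The 17 lower members include Slc6a2, which is given no direction below, and Slc7a8, whose interval includes 1. The interval of Slc16a7, among the 5 higher, also includes 1.

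**Figure D2:**
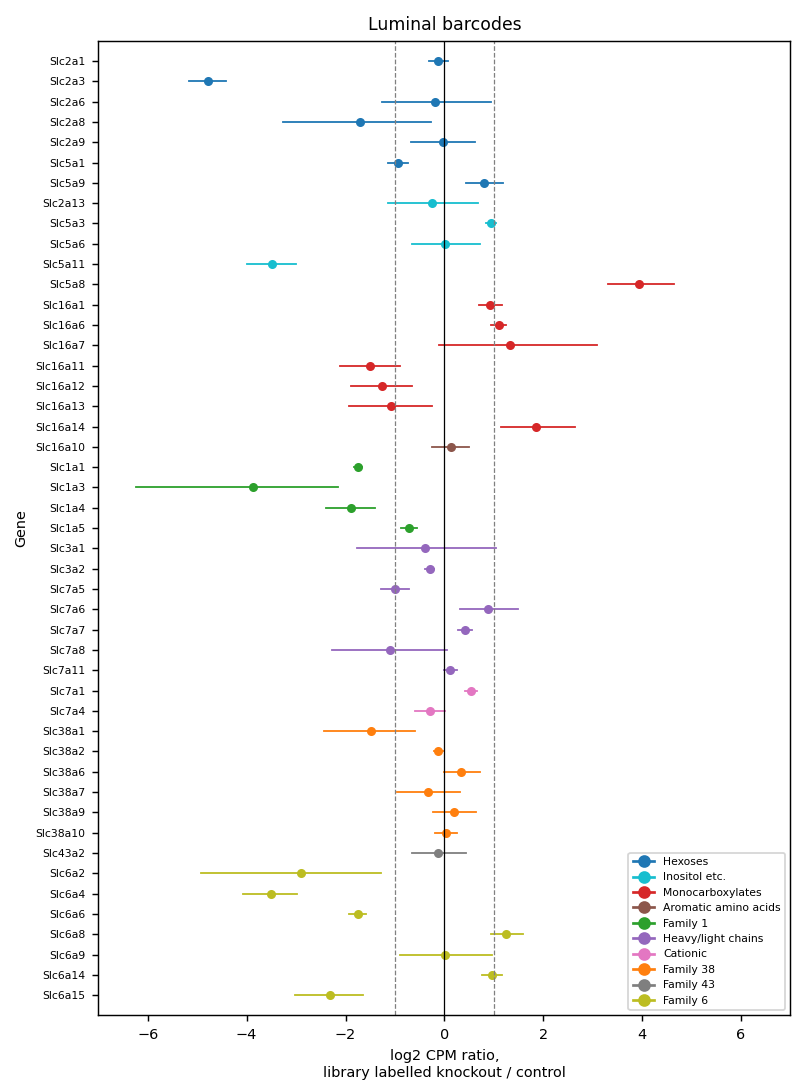
Log2 CPM ratio (library labelled knockout over control) of 47 measured transporters in luminal barcodes, ordered by role, with exact 95% intervals of counting error. Dashed lines mark 2-fold. Slc2a3 lies farthest to the left at -4.78 and Slc5a8 farthest to the right at 3.93.

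Among the hexose carriers, Slc2a3, the high-affinity glucose transporter GLUT3, had 66 UMIs (3.96 CPM) in luminal barcodes labelled knockout and 1038 UMIs (109 CPM) in control, 27.5-fold lower (21.4 to 35.8). The remaining signal lay mostly in luminal barcodes with some glandular RNA. Of the 66 UMIs, 45 came from 37 barcodes that carried between 2 and 10 glandular marker UMIs per 10000, below the glandular threshold. In the 1258 luminal barcodes labelled knockout with no glandular marker UMI, Slc2a3 had 15 UMIs (0.958 CPM), against 959 UMIs (111 CPM) in the 599 such control barcodes. The ratio there was 116-fold lower (70.1 to 208). This split was chosen after the levels had been seen. Slc2a1, the widespread basal glucose carrier GLUT1, was 38.5 CPM in luminal barcodes labelled knockout and 41.8 CPM in control, a log2 ratio of -0.12. The sodium-glucose carrier Slc5a1 was 24.4 and 46.7 CPM in the same order, 1.91-fold lower (1.67 to 2.19) and so within the cutoff. Its relative Slc5a9 was 15.2 and 8.70 CPM. The intracellular hexose carrier Slc2a8 passed the cutoff on 7 and 13 UMIs, 3.24-fold lower (1.20 to 9.60). Summed over the 14 hexose carriers, the level was 87.7 CPM under the knockout label and 214 CPM in control, a ratio of 0.410 (0.383 to 0.438).

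**Figure D3:**
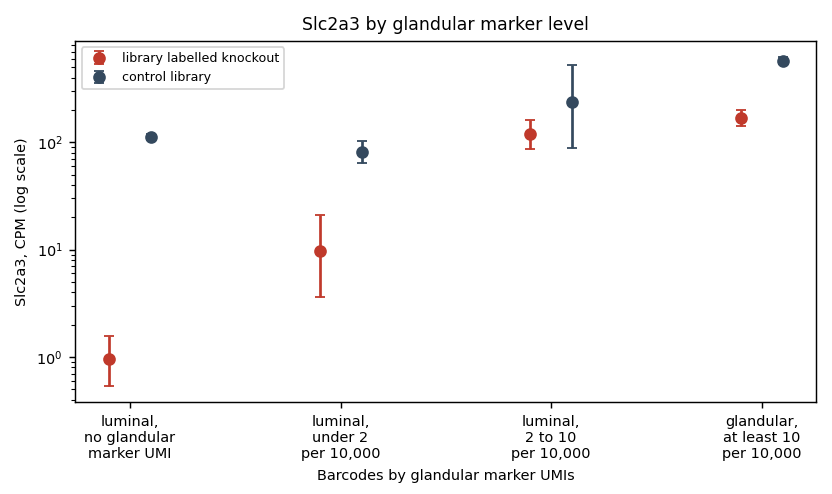
Slc2a3 level (CPM, log scale, exact Poisson 95% bars) in luminal barcodes grouped by glandular marker UMIs per 10000, and in glandular barcodes. In luminal barcodes with no glandular marker UMI it is 0.958 CPM in the library labelled knockout and 111 CPM in control. In glandular barcodes it is 169 and 578 CPM.

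The inositol carriers differed from each other. Slc5a11, a sodium-coupled myo-inositol carrier (SMIT2), had 41 UMIs (2.46 CPM) in luminal barcodes labelled knockout and 263 UMIs (27.6 CPM) in control, 11.2-fold lower (8.04 to 15.97). Slc5a3, the related carrier SMIT1 that cells raise under hypertonic stress, was 237 CPM under the knockout label and 123 CPM in control, 1.92-fold higher (1.799 to 2.05). It fell just inside the cutoff and passed it with recentred ratios. Together the 6 members of that group summed to 244 CPM under the knockout label and 156 CPM in control.

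Monocarboxylate carriers were the group with the most members higher past the cutoff in luminal barcodes, 4 of 8 measured, with 3 lower past it. Over all features measured there, 5.37% were higher and 15.4% lower by this cutoff. Slc5a8 (SMCT1), which moves lactate, pyruvate and short-chain fatty acids with sodium, had 560 UMIs (33.6 CPM) under the knockout label and 21 UMIs (2.202 CPM) in control, 15.3-fold higher (9.89 to 24.9). Slc16a6, monocarboxylate transporter 7, was 93.0 and 43.5 CPM, 2.14-fold higher (1.92 to 2.39), near the cutoff. The lactate carrier Slc16a1 (MCT1) was 38.9 and 20.4 CPM, 1.90-fold higher (1.62 to 2.24), under the cutoff. The poorly characterised Slc16a14 was 7.21 and 1.99 CPM. Slc16a7 (MCT2) had 22 and 5 UMIs and an interval of 0.931 to 8.52. Slc16a11, Slc16a12 and Slc16a13 were lower, between 2.11-fold and 2.82-fold, at levels of at most 6.61 CPM. The 14 carriers summed to 182 CPM under the knockout label and 85.5 CPM in control, a ratio of 2.12 (1.96 to 2.30).

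Family 1 carriers of acidic and small neutral amino acids were lower in luminal barcodes, 3 of 4 measured past the cutoff. Over all features measured there, 15.4% were lower by this cutoff. Slc1a1 (EAAC1), which takes up glutamate, aspartate and cysteine, had 1872 UMIs (112 CPM) under the knockout label and 3609 UMIs (378 CPM) in control, 3.37-fold lower (3.18 to 3.56). Slc1a4 (ASCT1) was 3.12 and 11.6 CPM, 3.73-fold lower (2.66 to 5.29). Slc1a3, a glutamate carrier best known in glia, had 3 and 25 UMIs, 14.6-fold lower (4.44 to 75.3). The glutamine carrier Slc1a5 (ASCT2) was 41.4 CPM under the knockout label and 68.3 CPM in control, within the cutoff. The group's sum, most of it Slc1a1, was 157 and 461 CPM, a ratio of 0.341 (0.325 to 0.358).

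Family 6 members went both ways in luminal barcodes. Slc6a4, the serotonin transporter, had 34 UMIs (2.04 CPM) under the knockout label and 222 UMIs (23.3 CPM) in control, 11.4-fold lower (7.92 to 16.9). Slc6a6, the taurine transporter, was 26.0 and 87.7 CPM, 3.37-fold lower (2.999 to 3.79). Slc6a15, a carrier of branched-chain amino acids and proline, was 1.56 and 7.76 CPM. Against these, Slc6a8, which imports creatine, was 25.04 CPM under the knockout label and 10.5 CPM in control, 2.39-fold higher (1.92 to 3.001), though inside the cutoff when thinned to 2000 UMIs per barcode (log2 0.70). Slc6a14 (ATB0,+), a concentrative carrier of neutral and cationic amino acids, was 55.1 and 28.2 CPM, 1.95-fold higher (1.70 to 2.25), just under the cutoff.

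The noradrenaline transporter Slc6a2 met the cutoff in luminal barcodes on 4 UMIs under the knockout label and 17 in control, but its level there was 0.235% and 1.29% of its stromal level. The stromal check markers summed to 0.362% and 1.29% of their stromal level in the same libraries, ranging over single markers from 0.236% to 0.830% and from 0.422% to 1.42%. Luminal Slc6a2 is therefore given no direction. These markers also summed lower in luminal barcodes labelled knockout (5.04 CPM) than in control (16.8 CPM), and their part in the other low-level luminal differences was not tested.

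The exchangers of family 7 and their heavy chains were closer between libraries. Slc3a2 (4F2hc), the heavy chain that carries most light chains to the surface, was 152 CPM in luminal barcodes labelled knockout and 187 CPM in control. Slc7a5 (LAT1), its partner for large neutral amino acids, was 12.4 and 24.7 CPM, 2.001-fold lower (1.65 to 2.42), at the cutoff itself, and inside it under 7 alternatives (log2 -0.66 to -0.99). Slc7a8 (LAT2), another partner of Slc3a2, had 13 and 16 UMIs, and its interval for the fold lower, 0.969 to 4.86, includes 1. Slc7a11 (xCT), the cystine carrier, was 84.2 and 77.5 CPM, and Slc7a7 (y+LAT1), which exports cationic amino acids, 85.0 and 63.5 CPM. Slc7a6, a close relative, was 6.60 and 3.56 CPM. Its antisense neighbour Slc7a6os is counted as a separate feature, and how reads were assigned between them was not checked. The cationic carrier Slc7a1 (CAT1) was 118 CPM under the knockout label and 81.9 CPM in control, a log2 ratio of 0.53. Of 6 family 38 members measured, Slc38a1 alone was past the cutoff, at 1.08 and 3.04 CPM, though not without doublet removal (log2 -0.98) or at a marker threshold of 5 (log2 -0.84), while the glutamine and alanine carrier Slc38a2 (SNAT2) was 183 and 199 CPM.

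The share of luminal barcodes that carried a UMI is given for 3 members with large differences in level. With each barcode thinned to 2000 UMIs, which left out 54 luminal barcodes labelled knockout and 31 control ones, Slc1a1 was found in 21.1% of barcodes labelled knockout and 51.0% of control barcodes (61.7% and 91.0% unthinned). In stromal barcodes the thinned shares were 1.17% and 2.10%. Slc5a8 was found in 6.35% of luminal barcodes labelled knockout and 0.649% of control ones (21.7% and 2.16% unthinned), and in 0.106% and 0.0313% of stromal barcodes. Slc2a3 was found in 0.863% and 15.9% of luminal barcodes (2.41% and 47.3% unthinned), and in 4.46% and 3.95% of stromal ones. For members closer in level the order could differ, as for Slc2a1, found thinned in 8.08% of luminal barcodes labelled knockout and 5.68% of control ones (34.0% and 36.6% unthinned). In the library labelled knockout, the luminal share of Slc2a3 thus lay below the stromal share, and in control above it.

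Promoter sequence is shown for luminal members that were low or high in the library labelled knockout, so that their base composition can be seen side by side. Of the 9 members past the cutoff at 20 CPM or more, 4 had an entry in the RefSeq promoter table (GRCm38.p6). This is another build than the mm39 of the deposited files, so the positions belong to the table. Each line gives the 250 bases before the annotated start, 5′ to 3′ on the gene's + strand, with CG pairs in capitals. Slc1a1 is at chr19:28834885-28835134, Slc5a11 at chr7:123214616-123214865, Slc6a4 at chr11:76998347-76998596 and Slc5a8 at chr10:88885742-88885991.
Slc1a1: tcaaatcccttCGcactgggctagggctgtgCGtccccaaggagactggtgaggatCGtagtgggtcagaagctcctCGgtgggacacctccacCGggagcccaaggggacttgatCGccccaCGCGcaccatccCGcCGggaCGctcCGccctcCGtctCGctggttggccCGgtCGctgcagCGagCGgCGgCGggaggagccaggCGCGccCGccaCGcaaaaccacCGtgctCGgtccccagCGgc
Slc5a11: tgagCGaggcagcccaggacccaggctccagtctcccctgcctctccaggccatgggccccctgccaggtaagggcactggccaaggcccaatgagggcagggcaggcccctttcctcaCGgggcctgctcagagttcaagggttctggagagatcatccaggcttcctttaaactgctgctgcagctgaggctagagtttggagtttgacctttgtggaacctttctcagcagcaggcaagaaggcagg
Slc6a4: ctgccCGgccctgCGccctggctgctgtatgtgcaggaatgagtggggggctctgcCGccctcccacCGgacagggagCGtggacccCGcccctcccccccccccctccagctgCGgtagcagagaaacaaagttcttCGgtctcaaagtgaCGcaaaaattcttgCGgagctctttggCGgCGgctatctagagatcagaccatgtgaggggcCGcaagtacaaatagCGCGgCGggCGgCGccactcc
Slc5a8: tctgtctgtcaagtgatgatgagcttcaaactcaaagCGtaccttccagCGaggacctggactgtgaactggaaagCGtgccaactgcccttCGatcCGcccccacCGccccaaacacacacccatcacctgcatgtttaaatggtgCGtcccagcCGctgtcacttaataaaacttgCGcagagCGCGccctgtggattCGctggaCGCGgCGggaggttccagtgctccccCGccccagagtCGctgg

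The 3 lower members did not share 1 type of promoter. Slc1a1 held 27 CG pairs in its 250 bases, a count that 8.56% of the 32851 promoters in the table reach, and Slc6a4 held 18, which 21.7% reach. Slc5a11 held 2, which 81.2% reach. The higher Slc5a8 held 17, which 23.5% reach. The amino acid response core TGATGNAA, the hypoxia response core ACGTG and the steroid hormone half-site TGTTCT were searched on both strands from 250 bases before to 50 after the start. None of these motifs occurred in any of the 4 windows, against 3.97%, 19.6% and 19% of all promoters of that length. This says only that these letters are not in these windows.

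Partner genes, from lists of chaperones, enzymes and sensors chosen for the substrates of these carriers, are given for luminal barcodes with the same cutoff. Of 18 measured enzymes of amino acid, creatine and taurine metabolism, 6 were at least 2-fold lower and 1 higher, against 15.4% and 5.37% of all features measured there. Cdo1 (cysteine dioxygenase) was 7.45 CPM under the knockout label and 27.2 CPM in control, 3.65-fold lower (2.93 to 4.55). Csad, which makes hypotaurine, was 10.8 and 28.7 CPM, and Cbs, which opens the route from homocysteine to cysteine, 29.6 and 166 CPM, 5.61-fold lower (5.07 to 6.22). Cth, the next enzyme after Cbs, was 3.60 and 11.1 CPM. Gclc, which uses cysteine to make glutathione, was 139 CPM under the knockout label and 144 CPM in control. Glul (glutamine synthetase), which uses the glutamate that Slc1a1 imports, was 206 CPM under the knockout label and 583 CPM in control, 2.83-fold lower (2.71 to 2.96). The remaining lower enzyme was Phgdh, which begins serine synthesis, at 3.002 and 8.91 CPM, and the higher one was Arg1 (arginase), at 22.5 and 10.5 CPM.

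Of 13 measured enzymes of glucose, lactate and polyol metabolism, 2 were lower in luminal barcodes and 1 higher, shares close to the 15.4% and 5.37% of all features. Hk2 (hexokinase 2), which traps imported glucose, was 93.1 CPM under the knockout label and 35.0 CPM in control, 2.66-fold higher (2.36 to 3.0). Pfkfb3, an activator of glycolytic flux, was 10.2 and 40.2 CPM, 3.96-fold lower (3.29 to 4.77), and Sord, which oxidises sorbitol, 0.721 and 2.73 CPM. Ldha (lactate dehydrogenase A) was 527 and 558 CPM. Among 7 measured chaperones and trafficking genes, Emb (embigin), a chaperone of SLC16 carriers, was 2.06-fold lower (1.99 to 2.12) at 425 and 874 CPM, and Sgk1, a kinase that holds carriers at the membrane, 2.06-fold higher (1.89 to 2.25) at 138 and 67.1 CPM. Bsg (basigin), the main chaperone of Slc16a1, was 489 CPM under the knockout label and 394 CPM in control.

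**Figure D4:**
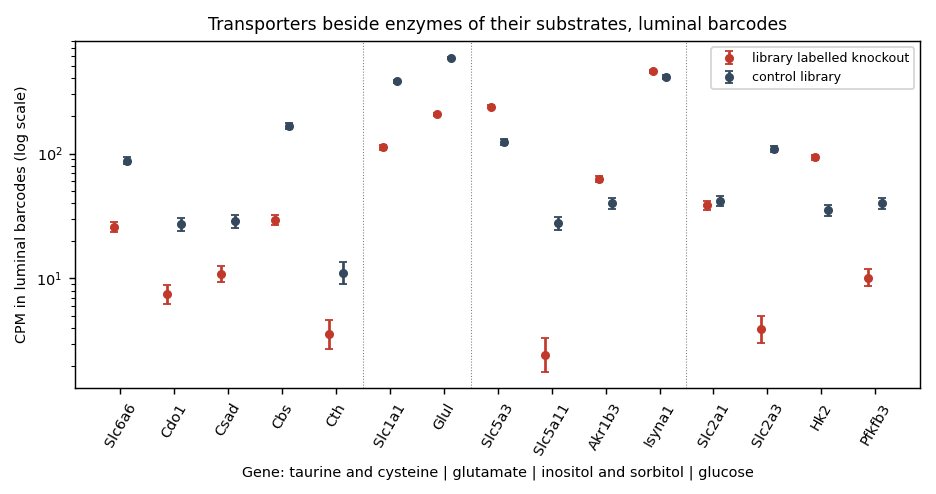
Levels (CPM, log scale, exact Poisson 95% bars) of carriers beside enzymes of their substrates in luminal barcodes of the library labelled knockout (left point of each pair) and control. Slc6a6, Cdo1, Csad, Cbs and Cth are all lower under the knockout label, and Slc1a1 lies beside Glul, at 112 against 378 CPM and 206 against 583 CPM.

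Amino acid sensing and stress genes went both ways in luminal barcodes, with 3 of 12 lower and 1 higher, the list including the lysosomal arginine sensor Slc38a9, itself a transporter of the set. Over all luminal features the shares were again 15.4% and 5.37%. Atf4, the factor that induces carriers when amino acids are short, was 240 CPM under the knockout label and 186 CPM in control. Its target Chac1 was 4.503 and 12.2 CPM, while Ddit4, an inhibitor of mTORC1 signalling, was 35.7 and 12.8 CPM. Rragd and Castor1, from the amino acid sensing list, were 0.660 and 1.32 CPM under the knockout label, against 4.09 and 4.19 CPM in control. Nfat5, the factor that induces Slc5a3, Slc6a6 and the sorbitol enzyme Akr1b3 under hypertonic stress, was 232 CPM under the knockout label and 146 CPM in control. Akr1b3 was 62.6 and 40.2 CPM, so that of these Nfat5 targets Slc5a3 and Akr1b3 had the higher level under the knockout label and Slc6a6 the lower.

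In glandular barcodes Slc2a3 was lower as well, with 124 UMIs (169 CPM) under the knockout label and 732 UMIs (578 CPM) in control, 3.42-fold lower (2.82 to 4.17). Of 25 measured members, 2 were lower (8%) and 3 higher (12%), against 5.67% and 4.51% of all 8360 features measured there. The member lower beside Slc2a3 was Slc16a6, at 24.6 and 55.3 CPM, 2.25-fold (1.33 to 4.02), a call that was lost by means over barcodes (log2 -0.86) and when thinned to 2000 UMIs (log2 -0.12). The members higher were Slc7a7 at 61.4 and 24.5 CPM, Slc6a8 at 34.1 and 15.01 CPM, and Slc1a4 on 13 and 10 UMIs, whose interval of 0.910 to 5.72 includes 1. The Slc6a8 call was lost at a marker threshold of 5 (log2 0.90) and when thinned (log2 0.10). Slc1a1 was 136 CPM in glandular barcodes labelled knockout and 83.0 CPM in control, 1.65-fold higher (1.24 to 2.18), and Slc5a8 was 47.8 and 24.5 CPM, 1.95-fold higher (1.17 to 3.27). The glandular classes rest on 98 and 102 barcodes, and the glandular markers that define them were lower under the knockout label. Their part in these ratios was not tested.

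In stromal barcodes the amino acid uniporter Slc43a2 was higher in the library labelled knockout, and the amino acid exchanger Slc7a8 and the inositol carrier Slc2a13 were lower. The 2-fold cutoff held 6 of 52 measured members on the higher side (11.5%) and 9 on the lower (17.3%), against 5.55% and 11.7% of all 14457 features measured there. The median log2 ratio was 0.18 over the members and -0.05 over all features. Of these 15 members, 3 reached 20 CPM in the higher library.

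Slc43a2 (LAT4), a uniporter that lets large neutral amino acids out of cells, had 265 UMIs (67.3 CPM) in stromal barcodes labelled knockout and 724 UMIs (24.6 CPM) in control, 2.74-fold higher (2.37 to 3.16). Slc7a8 (LAT2), an exchanger of neutral amino acids, had 81 UMIs (20.6 CPM) and 1636 UMIs (55.5 CPM), 2.70-fold lower (2.16 to 3.42). Slc2a13 (HMIT), a proton-coupled inositol carrier, was 20.3 CPM under the knockout label and 45.1 CPM in control, 2.22-fold lower (1.77 to 2.82), and inside the cutoff when thinned (log2 -0.91). These 3 stromal members therefore moved in both directions.

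Several further stromal carriers lay just under the cutoff on the higher side. Slc16a10 (TAT1), a carrier of aromatic amino acids, was 50.02 CPM under the knockout label and 25.1 CPM in control, with an interval of 1.70 to 2.34. Slc38a1 (SNAT1), a glutamine carrier, was 112 and 58.3 CPM, 1.93-fold higher (1.73 to 2.14). Slc7a1 was 120 and 63.8 CPM, 1.89-fold higher (1.70 to 2.09). Slc7a5, farther from the cutoff, was 57.6 CPM under the knockout label and 36.8 CPM in control, 1.57-fold higher (1.35 to 1.81). Lower under the knockout label, though within the cutoff, were Slc6a2 at 102 and 138 CPM and Slc1a5 at 45.7 and 60.2 CPM.

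The other stromal members past the cutoff were low in both libraries, at no more than 17.01 CPM. Slc6a13 (GAT2), a carrier of GABA and taurine, was 10.9 CPM under the knockout label and 2.68 CPM in control, 4.07-fold higher (2.74 to 5.98). The lysosomal hexose carrier Slc2a6 was 17.01 and 7.19 CPM, the lactate exporter Slc16a3 (MCT4) 3.81 and 1.25 CPM, Slc7a7 5.08 and 2.002 CPM, and Slc6a12 1.78 and 0.475 CPM. Slc6a4 had no UMI in stromal barcodes labelled knockout and 45 UMIs (1.53 CPM) in control, at least 2.004-fold lower with the missing count set to a floor of 3, a bound that fell inside the cutoff under 4 alternatives (log2 -0.98 to 0.00). Slc3a1 had 5 and 121 UMIs, Slc38a5 4 and 82 UMIs, and Slc6a15 12 and 183 UMIs. The intervals of Slc1a6, Slc16a6 and Slc38a4, each on 2 to 4 UMIs under the knockout label, include 1. In the same stromal barcodes the epithelial check markers summed to 56.6 CPM under the knockout label and 10.7 CPM in control, and median depth was 3636 and 8879 UMIs. Plasma cell markers summed to 40.1 CPM under the knockout label and 176 CPM in control, and endothelial markers to 14.2 and 42.5 CPM. Most of the endothelial sum was Cdh5, at 9.395 and 35.2 CPM. Pecam1 (1.52 and 2.88 CPM) and Emcn (1.02 and 2.41 CPM) were lower too, and Kdr was 2.285 and 2.04 CPM. Of 4 smooth muscle markers Des was higher under the knockout label, at 752 against 418 CPM in control, and Myh11, Actg2 and Cnn1 were lower, at 8.38, 18.3 and 15.5 CPM against 33.4, 45.9 and 27.4 CPM in control. Their part in the stromal ratios was not tested.

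**Figure D5:**
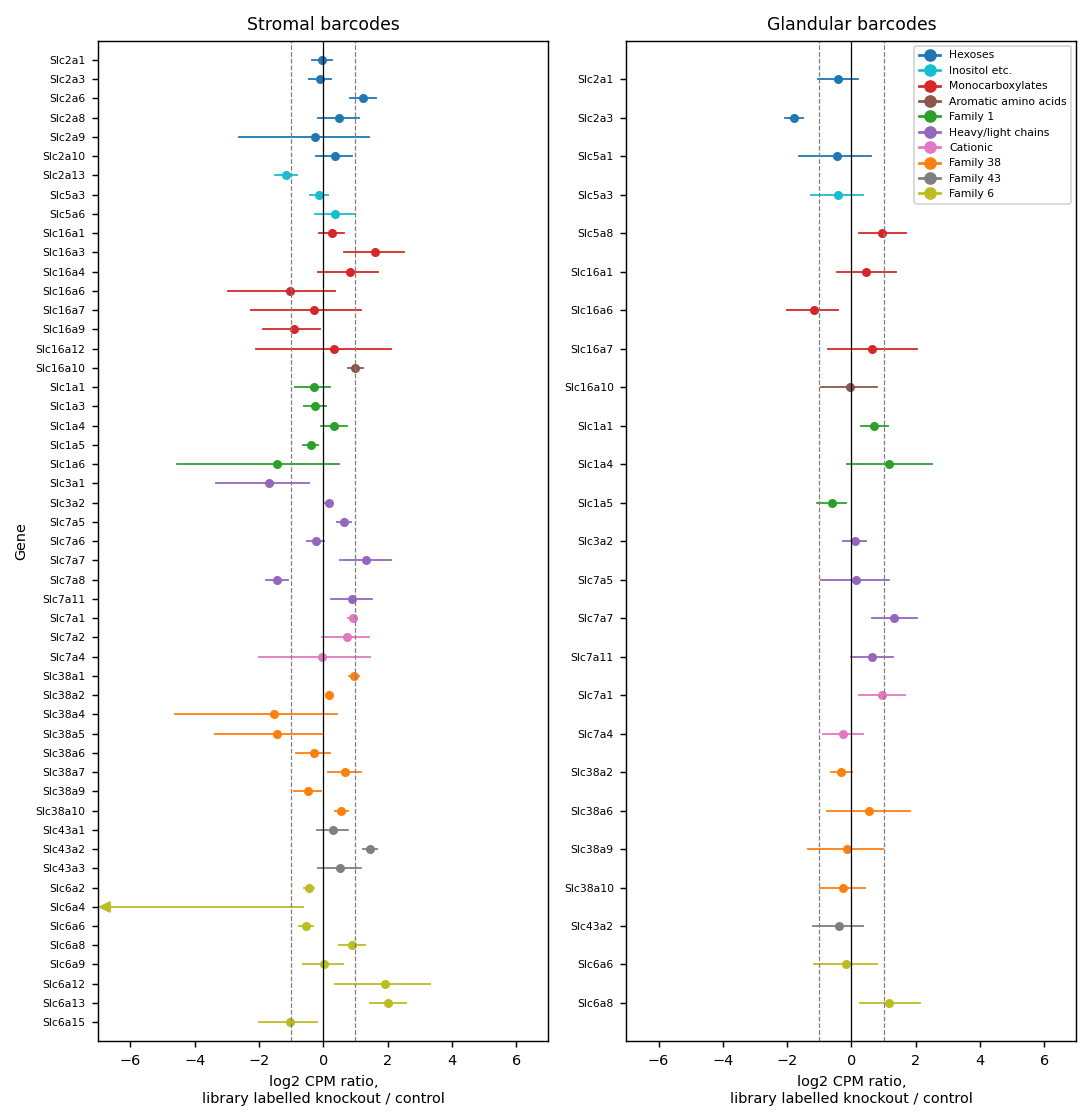
Log2 CPM ratio (library labelled knockout over control) of measured transporters in stromal barcodes (51, left) and glandular barcodes (25, right), ordered by role, with exact 95% intervals of counting error. Dashed lines mark 2-fold and the arrow marks Slc6a4, which had no UMI under the knockout label. Slc43a2 lies at 1.45 and Slc7a8 at -1.43 in stroma, and Slc2a3 at -1.77 in glands.

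The main glucose carriers were close between libraries in stroma. Slc2a1 was 24.1 CPM under the knockout label and 24.6 CPM in control, and Slc2a3 21.3 and 22.8 CPM, with an interval for its fold lower of 0.852 to 1.36. Slc2a3 therefore stood above its luminal level in stromal barcodes labelled knockout, and below it in control. Of 14 measured stromal enzymes of glucose, lactate and polyol metabolism, 1 was higher and 2 lower, against 5.55% and 11.7% of all stromal features. The higher one was Hk2, at 31.0 CPM under the knockout label and 14.6 CPM in control. Ldhb was 22.6 and 54.5 CPM, 2.41-fold lower (1.95 to 3.02), and Pdk1 3.81 and 10.6 CPM, 2.79-fold lower (1.66 to 5.04). Gamt, the last enzyme of creatine synthesis, was 11.4 and 79.0 CPM, 6.91-fold lower (5.15 to 9.50), while the creatine importer Slc6a8 was 16.2 and 8.75 CPM, 1.86-fold higher (1.39 to 2.45). Phgdh was 36.3 and 139 CPM, 3.83-fold lower (3.24 to 4.55). Gamt and Phgdh were the 2 lower of 18 measured enzymes of amino acid, creatine and taurine metabolism, with 0 higher by this cutoff, and the lower share was close to the 11.7% of all stromal features.

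In the other barcodes, a mixture of lymphoid, myeloid, endothelial, plasma and muscle cells by their markers, 34 members were measured. Of these, 2 were higher (5.88%) and 3 lower (8.82%), against 4.32% and 5.93% of all 10413 features. Slc7a2 (CAT2), which supplies arginine, had 14 UMIs under the knockout label and 7 in control. Slc2a13 had 8 and 76 UMIs, Slc38a7 3 and 24, and Slc1a4 3 and 24. Epithelial check markers summed to 240 CPM in these barcodes under the knockout label and 40.9 CPM in control. Macrophage markers summed to 897 and 1928 CPM, and smooth muscle markers to 1038 and 604 CPM. Against these sums, the macrophage marker Adgre1 was 39.9 and 34.1 CPM, and the smooth muscle marker Actg2 114.5 and 169.6 CPM. The part of these cell types in the ratios was not tested.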

How the data were processed

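Single cells from trypsin-digested uteri were captured with 10x droplets after removal of blood cells with a dead cell removal kit, per the labels' protocols. The deposited files hold raw UMI counts per gene and barcode, and their headers name Cell Ranger 7.0.1. The submitters' processing notes list Seurat and the mm39 build. The library labelled knockout held 3118 barcodes and 23317904 UMIs, the control 4627 barcodes and 44871170 UMIs, and 3 barcode sequences occurred in both.

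Barcodes with under 500 genes (115 and 65) or over 15% mitochondrial UMIs (52 and 100 more) were removed. Scrublet in scanpy 1.11.5 then removed the highest-scoring 70 and 159 barcodes, 0.8% per 1000 barcodes. Barcodes past both the epithelial and the stromal threshold (9 and 26) stayed epithelial. UMIs were summed per class and library. Members with at least 20 UMIs over both libraries were compared at a 2-fold cutoff, with 0 counts set to a floor of 3. Ratio intervals are exact conditional, level intervals exact Poisson and share intervals exact binomial, at 95%. No correction for gene length was made. Levels were added over the genes of a role group or marker list, where genes with more UMIs weigh most. Level also served to choose genes to name, and no ranking of genes by level is meant beyond these uses. The procedure was tested on simulated counts. Genes named were those past 2-fold with at least 20 CPM in luminal, glandular or stromal barcodes and the 3 of each role group with the highest level, and others were named after their values were seen. Members, lists and rules were chosen with earlier results of these data known. A member and a partner gene are included in the counts and sums but are not reported here by name.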

Additional observations from a re-analysis of the deposited data

Results flagged for a closer look

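For 4 transporters the ratio of the library labelled knockout to control went in opposite directions in 2 classes, with both 95% counting intervals off 1 and at least 1 ratio past 2-fold. The difference between the classes was not tested. Slc1a1 had a ratio of 0.297 in luminal and 1.65 in glandular barcodes. Slc16a6 had a ratio of 2.14 in luminal and 0.444 in glandular barcodes, where the log2 ratio was -0.86 by means over barcodes and -0.12 when thinned to 2000 UMIs. Between luminal and stromal barcodes, the ratios were 0.5 and 1.57 for Slc7a5, and 0.355 and 1.93 for Slc38a1. The luminal ratio of Slc7a5 was inside the cutoff under several alternatives (log2 -0.66 to -0.99). That of Slc38a1 was inside it without doublet removal (log2 -0.98) and at a marker threshold of 5 (log2 -0.84). The luminal levels of Slc38a1 were 1.08 CPM under the knockout label and 3.04 CPM in control.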

How the results depend on the processing

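No paired analysis was possible because each genotype had 1 library. Under each alternative, counts and medians were taken over all members, and ratios of single members for named members only. None of the 24 values of named members past 2-fold changed sign. Where a library had 0 UMIs, a ratio that the floor would have turned was set to log2 0 and could not change sign. Of 206 alternative values for these 24, 175 stayed past 2-fold. In luminal barcodes the higher count of 5 was 9 with recentred ratios and 8 by means over barcodes. The lower count of 17 was 7 when thinned to 2000 UMIs and 10 with members of at least 100 UMIs. The median of -0.21 was 0.05 when thinned. In luminal barcodes with no glandular marker UMI, a subset chosen after seeing the data, 7 were higher and 14 lower. In stromal barcodes the higher count of 6 was 11 with at least 1 UMI and 3 with at least 100, and the lower count of 9 was 3 when thinned and 4 with at least 100. In glandular barcodes the higher count of 3 was 1 at a marker threshold of 5, 5 at 20, 1 when thinned, 5 with at least 1 UMI and 0 with at least 100. The lower count of 2 was 1 by means over barcodes, 1 when thinned, 7 with at least 1 UMI and 1 with at least 100. Thinning left 29, 41 and 6 members measured in luminal, stromal and glandular barcodes. Depth limits low members most, and the libraries' depths differ.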
